A study of Rattus norvegicus with 9 samples.

Results

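Cadherins and protocadherins are calcium-dependent adhesion proteins of the cell surface. The 87 genes described here were every row of the 23953-gene count table whose symbol was Cdh followed by a number (Cdh5 left out) or began with Pcdh. They comprised 17 classical cadherins (5 of type I and 12 of type II), 54 clustered protocadherins (11 Pcdha, 22 Pcdhb and 21 Pcdhg genes), 12 non-clustered protocadherins and 4 further Cdh genes (Cdh13, Cdh17, Cdh23 and Cdh26). All samples were neural stem cells (NSCs) isolated, per the paper's methods, from the spinal cord of neonatal rats and kept in differentiation medium. The Con group received the medium alone, the Exo group received it with exosomes that mesenchymal stem cells of bone marrow (BMSCs) had released, and the pLV-Exo-Wnt5a group received it with exosomes of BMSCs that overexpressed Wnt5a from a lentiviral vector. In the paper's methods the BMSCs of the Exo group carried the empty vector. Each group had 3 RNA-seq libraries, and nothing in the labels ties a library to a litter or a separate culture, so the p-values measure the spread between these libraries, which may be technical.

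A classical cadherin binds the same cadherin on a neighbouring cell and connects, through catenins, to the actin cytoskeleton. N-cadherin (Cdh2) is the classical cadherin for which neuroepithelial cells are best known. Clustered protocadherins are encoded by adjoining gene arrays in which each variable exon has its own promoter, and neurons choose among these promoters so that cells differ in the set of isoforms they display. Pcdha and Pcdhg transcripts end in constant exons shared by their cluster, whereas each Pcdhb gene is a single coding exon. Non-clustered protocadherins, most of them of the delta-1 and delta-2 groups, are scattered over the genome and are known for roles in cell sorting, axon growth and synapse formation.

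The promoters of Pcdhb genes share a short conserved element close to the transcription start. RefSeq promoter windows of the rat assembly GRCr8, which run from 250 bases before to 50 bases after each annotated start, were matched by symbol to 54 of the 87 genes (55 windows, as Pcdhga4 has a pair of them). The letters GGTGGCGCT, searched on both strands and chosen after the sequences had been read, occurred in 15 of the 17 matched Pcdhb windows. They occurred in none of the 14 Pcdhg windows, in 1 of the 38 windows of members outside Pcdhb (Cdh15) and in 153 of all 33469 windows in the table (0.457%). Where the match lay upstream, it began between 46 and 229 bases before the annotated start (median 68.5), and in Pcdhb16 it began at base 37 downstream of it. Pcdhb1 and Pcdhb15 had no match in this window. No Pcdha window was matched by symbol. The 8 stretches shown belong to Pcdhb genes with an unadjusted p under 0.05 in the Exo or the pLV-Exo-Wnt5a group against Con (10 in all, of which Pcdhb13 and Pcdhb22 had no window), because the array's summed level was higher in every exosome library than in every Con library. They lie on the plus strand of rat chromosome 18, and capitals mark the shared letters.
Pcdhb2 (chr18:29279921-29279946): aaaagaacgcagGGTGGCGCTgcagc
Pcdhb3 (chr18:29285602-29285627): aaatgaacgcatGGTGGCGCTgttga
Pcdhb5 (chr18:29302402-29302427): atatgaacgcagGGTGGCGCTgcagg
Pcdhb6 (chr18:29320150-29320175): aatagtacacacGGTGGCGCTgcagt
Pcdhb7 (chr18:29328996-29329021): aagtggacgcagGGTGGCGCTgcagg
Pcdhb9 (chr18:29379246-29379271): aaaaagacacagGGTGGCGCTgcagg
Pcdhb16 (chr18:29466294-29466319): atgagaccgcacGGTGGCGCTgcagg
Pcdhb20 (chr18:29485808-29485833): acagagacacatGGTGGCGCTgtagg

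The match describes these windows and was not used in any test. Because the count table carries mouse symbols and mouse NCBI gene numbers, the stretches are those of the rat genes of the same symbol, and a one-to-one correspondence between numbered Pcdhb genes of the species was not checked.

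Total counts per library ran from 32765138 to 40427647. Levels are given as CPM, the count scaled to a fixed library size after TMM, a correction for library composition computed over the 9 libraries. They are not divided by transcript length, so they are compared between groups and not between genes. A count of 0 allowed a level of up to 3 counts, or 0.0742 to 0.0916 CPM before the TMM correction, depending on the library. This floor covers counting error only. Con replicate 1 stood apart, with a TMM factor of 0.965 against 0.996 to 1.02 in the other 8 libraries, and it held the lowest value of 32 of the 77 members with over 3 counts in every library. Of the NSC markers, Sox2 stood at 404 to 687 CPM and Vim at 1231 to 2358 CPM. The astrocyte marker Gfap stood at 2204 to 4080 CPM, and the 4 proliferation markers summed to between 32.8 and 59.1 CPM. These levels do not settle how many cells were still NSCs in the differentiation medium. All 7 neuron and all 7 astrocyte markers were also detected in every library. The oligodendrocyte lineage was well represented, with its 8 markers summing to between 1934 and 2380 CPM (Olig1 840 to 1139 CPM), although Mog was at 0 counts in at least 1 library. Endothelial, fibroblast and epithelial markers were scarce, and Cldn5, Flt1, Lum, Twist1 and Krt19 had 0 counts in at least 1 library and at most 9 in any. The 4 endothelial markers measured summed to between 4.24 and 8.09 CPM, the 4 epithelial markers to between 0.363 and 0.984 CPM, and the 6 fibroblast markers to between 17.1 and 28.3 CPM.

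The 87 genes together took between 0.248% and 0.27% of all counts. Their summed level overlapped between groups, at 2605 ± 39.5 CPM for Con, 2591 ± 138 CPM for Exo and 2616 ± 69.8 CPM for pLV-Exo-Wnt5a (SD, n = 3 each). In 8 members counts were too low for any test. Cdh3, the P-cadherin of epithelia, had at most 7 counts in a library. Pcdhb1 was detected in only 1 library, Exo replicate 3, with 4 counts. Cdh12, Cdh17, Cdh19, Cdh26, Pcdh12 and Pcdha8 reached at most 15 counts in any library. E-cadherin (Cdh1), which joins epithelial cells, was tested only between the exosome groups and stayed between 0.0609 and 0.509 CPM in all 9 libraries.

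All 3 pairs of groups were compared with edgeR's quasi-likelihood test, with Q the Benjamini-Hochberg adjusted p over all genes tested. They share libraries, so their results are not independent of each other. No member reached Q under 0.05 in any of them. The smallest Q of a member was 0.265 between Exo and Con, 0.0939 between the exosome groups (Pcdh19) and 0.281 between pLV-Exo-Wnt5a and Con (Pcdhb22). In the same order, 0.00664%, 0.436% and 0.0862% of all genes tested had Q under 0.05. DESeq2 on the same libraries put Q under 0.05 for 0 members between Exo and Con, for 4 members (Pcdh19, Pcdh17, Pcdh11x and Cdh22) between the exosome groups, and for 1 (Pcdhb22) between pLV-Exo-Wnt5a and Con, against 1.74%, 2.72% and 0.477% of all genes to which it gave a Q. With edgeR at an unadjusted p under 0.05, 12 of 78 tested members (15.4%) differed between Exo and Con, 7 of 79 (8.86%) between pLV-Exo-Wnt5a and Exo, and 11 of 78 (14.1%) between pLV-Exo-Wnt5a and Con. The shares over all genes were 14.9%, 12% and 8.35%, so in the first comparison the members were called about as often as any gene. Single libraries moved these counts, and the share over all genes moved too, not always the same way. The first count became 7 when Con replicate 1 was left out (12.1% of all genes in that fit) and 22 when Con replicate 3 was (23.4%). The second was 12 without Exo replicate 3 (13.4%). The third was 3 and 4 without pLV-Exo-Wnt5a replicates 1 and 2 (4.07% and 5.87%), and 7, 5 and 17 without Con replicates 1, 2 and 3 (9.3%, 6.13% and 14.4%). By direction, 10 members were higher and 2 lower in Exo than in Con (8.92% and 6.01% of all genes), 1 was higher and 6 lower in pLV-Exo-Wnt5a than in Exo (5.07% and 6.91%), and 11 were higher and 0 lower in pLV-Exo-Wnt5a than in Con (4.2% and 4.15%). With an absolute log2FC above 0.58 also required, 7, 2 and 6 members remained, against 4.47%, 3.49% and 2.16% of all genes. The 3 libraries of a group lay entirely above or below those of the other for 14 and 4 members in Exo against Con (10.9% and 12.4% of all genes), for 4 and 7 between the exosome groups (7.5% and 8.9%), and for 14 and 2 in pLV-Exo-Wnt5a against Con (7.67% and 9.4%).

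**Figure D1:**
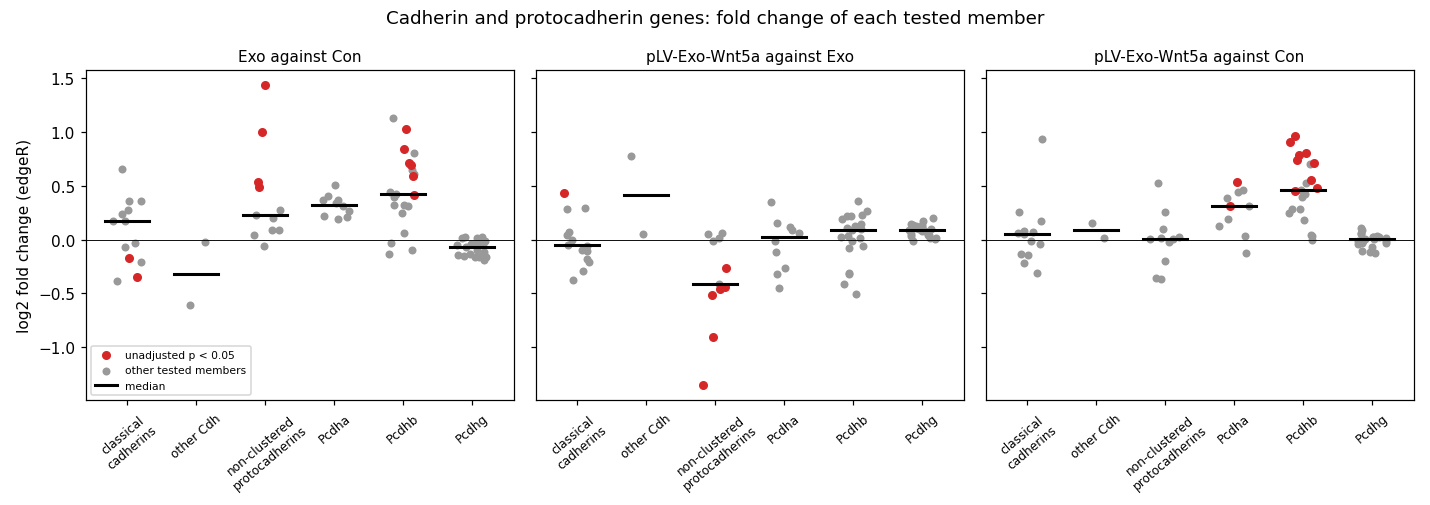
Log2 fold change (edgeR, vertical axis) of each tested member by family in the 3 comparisons, with red points for an unadjusted p under 0.05 and black bars for family medians. Non-clustered protocadherins lie low in the middle panel (median -0.41), Pcdhb genes lie high in both comparisons with Con (medians 0.42 and 0.46), and Pcdhg genes stay near 0 in all panels.

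Non-clustered protocadherins stood out between the exosome groups. Of the 11 tested, 6 were lower in pLV-Exo-Wnt5a than in Exo at an unadjusted p under 0.05 (54.5%, against 6.91% of all genes in this direction) and 0 were higher. The median log2FC of the family was -0.41, against 0.00 over all genes tested. The median was -0.24 without pLV-Exo-Wnt5a replicate 2, and the count of lower members ran from 4 (without pLV-Exo-Wnt5a replicate 1) to 7 (without pLV-Exo-Wnt5a replicate 3). In Exo against Con, 4 of 11 were higher (36.4%, against 8.92% of all genes) and 0 lower, with a median of 0.23 (0.15 without Con replicate 1 and 0.38 without Con replicate 3). In pLV-Exo-Wnt5a against Con none of the 11 had an unadjusted p under 0.05 and the median was 0.01.

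Pcdh19, a delta-2 protocadherin whose mutation causes an epilepsy in girls, was measured at 17.3, 27.8 and 26.1 CPM in the Con libraries, 33.7, 32.6 and 33.9 CPM in the Exo libraries, and 27.8, 24.1 and 20.6 CPM in the pLV-Exo-Wnt5a libraries. The 3 Exo libraries lay above all other 6. The log2FC was -0.46 ± 0.10 (SE) for pLV-Exo-Wnt5a against Exo (unadjusted p = 0.00114, Q = 0.0939) and 0.49 ± 0.16 for Exo against Con (Q = 0.268), both by edgeR. Pcdh17, also of the delta-2 group and known from corticobasal ganglia circuits, followed the same order, with 9.63, 14 and 13.1 CPM in Con, 19.8, 16.6 and 17.3 CPM in Exo, and 14.5, 11.5 and 11.1 CPM in pLV-Exo-Wnt5a. Its Exo libraries again did not overlap with either other group. Its log2FC was -0.52 ± 0.13 between the exosome groups (edgeR, unadjusted p = 0.0018, Q = 0.116) and 0.54 ± 0.16 for Exo against Con (Q = 0.265).

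Pcdh11x and Pcdh20 had fewer counts and larger fold changes. Pcdh11x, an X-linked delta-1 protocadherin, was measured at 0.96, 0.591 and 1.22 CPM in Con, 2.66, 1.41 and 1.49 CPM in Exo, and 0.757, 0.711 and 0.678 CPM in pLV-Exo-Wnt5a, which rested on 23 to 103 counts. Exo replicate 1 was the highest, and the other Exo libraries also exceeded every library of the other groups. The log2FC was -1.35 ± 0.34 between the exosome groups (edgeR, unadjusted p = 0.00236, Q = 0.132) and 1.00 ± 0.37 for Exo against Con (Q = 0.29). Pcdh20, counted here outside the delta-1 and delta-2 groups, was measured at 0.571, 0.847 and 0.669 CPM in Con, 1.99, 1.46 and 2.27 CPM in Exo, and 0.732, 1.31 and 0.993 CPM in pLV-Exo-Wnt5a. Its Exo libraries did not overlap with either other group. Its log2FC of 1.44 ± 0.32 in Exo against Con (edgeR, unadjusted p = 0.00109, Q = 0.265) was the largest of any member there, and it was -0.90 ± 0.32 between the exosome groups (Q = 0.298).

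Pcdh9 and Pcdh7, delta-1 members expressed in many neuron types, had an unadjusted p under 0.05 between the exosome groups and not in the other comparisons. Pcdh9 was measured at 10.4, 11.5 and 10.5 CPM in Exo and at 8.63, 6.64 and 8.48 CPM in pLV-Exo-Wnt5a (log2FC -0.44 ± 0.14, unadjusted p = 0.00911, Q = 0.228 by edgeR). The Con libraries, at 7.01, 11.5 and 11.9 CPM, spanned both. For Pcdh7 the values were 9.52, 12.1 and 13.3 CPM in Con, 15.2, 14.2 and 13.3 CPM in Exo, and 11.9, 11.3 and 11.8 CPM in pLV-Exo-Wnt5a, with a log2FC of -0.27 ± 0.11 between the exosome groups (edgeR, Q = 0.346). Of the remaining tested members, Pcdh15, a component of the hair cell tip link, was at 7.48 to 10.3 CPM in Exo and at 4.57 to 7.85 CPM in pLV-Exo-Wnt5a (log2FC -0.41 ± 0.20, edgeR Q = 0.467, and -0.22 without pLV-Exo-Wnt5a replicate 2).

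The 3 non-clustered members with the most counts showed no such pattern. Pcdh1, an adhesion protein of epithelia and brain, ranged from 193 to 241 CPM over the 9 libraries, with log2FCs between -0.06 and 0.05. Pcdh10, which binds the WAVE regulator of actin through its cytoplasmic tail, ranged from 167 to 195 CPM, with log2FCs between -0.01 and 0.04. Pcdh8 ranged from 99.4 to 128 CPM, and its log2FC was 0.09 ± 0.07 in Exo against Con. Pcdh18 stayed between 2.18 and 5.73 CPM. The family's summed level, which these abundant members dominate, ran from 570 to 583 CPM in Con, 587 to 623 CPM in Exo and 541 to 608 CPM in pLV-Exo-Wnt5a.

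**Figure D2:**
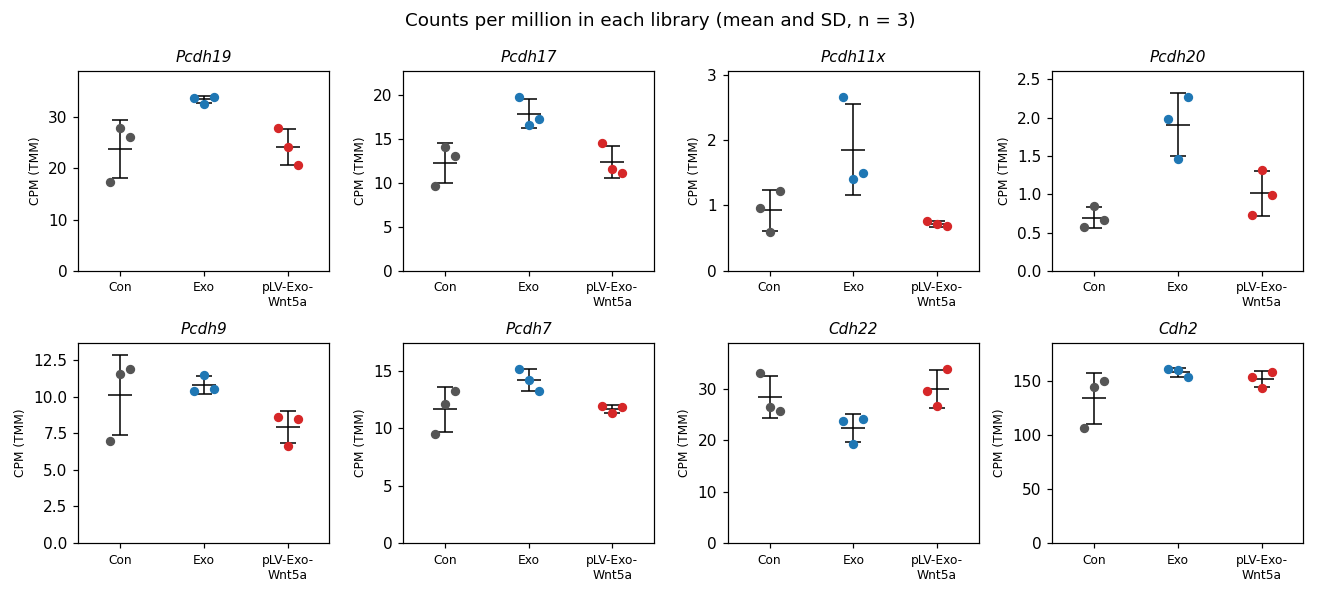
CPM (TMM, vertical axes from 0) of 6 non-clustered protocadherins and of Cdh22 and Cdh2 in each library of the 3 groups, with the mean and SD (n = 3). For Pcdh19, Pcdh17, Pcdh11x and Pcdh20 the 3 Exo libraries lie above all libraries of the Con and pLV-Exo-Wnt5a groups, for Cdh22 they lie below both.

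For Pcdh19, Pcdh17 and Pcdh11x the signs held in each of the 12 alternatives run, but this was largely fixed in advance. These genes had small p-values, and where groups do not overlap, leaving out a library can hardly turn a sign. Between the exosome groups their log2FCs ran from -0.57 to -0.36 for Pcdh19, from -0.65 to -0.45 for Pcdh17 and from -1.52 to -1.01 for Pcdh11x. In Exo against Con the ranges were 0.30 (without Con replicate 1) to 0.62 for Pcdh19, 0.39 to 0.65 for Pcdh17 and 0.66 (without Exo replicate 1) to 1.23 for Pcdh11x. Markers of cell state moved in the same comparisons. In Exo against Con, 5 of the 7 neuron markers were higher at an unadjusted p under 0.05 (against 8.92% of all genes), 3 of the 7 NSC markers were lower (Nes, Vim and Hes5, against 6.01%), and 2 of the 7 tested oligodendrocyte lineage markers were lower (Sox10 and Mbp). The neuron list summed to 3064 to 3110 CPM in Con, 3037 to 3616 CPM in Exo and 2899 to 3714 CPM in pLV-Exo-Wnt5a. Between the exosome groups, 6.91% of all genes were lower and 5.07% higher at an unadjusted p under 0.05. Of the 7 neuron markers, 2 were lower at such a p and 0 were higher (median log2FC -0.0082). Map2, the dendritic microtubule protein, had a log2FC of -0.48 (edgeR Q = 0.0759). Of the 7 NSC markers, 2 were higher and 0 were lower (median log2FC 0.06), with Vim at a log2FC of 0.62 (edgeR Q = 0.0389). In that comparison the astrocyte filament gene Gfap was higher (log2FC 0.86, edgeR Q = 3.36e-05), and the 7 astrocyte markers summed to 4628 to 4710 CPM in Exo and 6395 to 6680 CPM in pLV-Exo-Wnt5a. Gfap held 53.9% of the astrocyte sum, and the list was mixed, with 2 markers higher (Gfap and Aldh1l1), 2 lower (the glutamate transporters Slc1a3 and Slc1a2) and a median log2FC of -0.15. The 6 microglial markers summed to 6.78 to 8.95 CPM in Con, 2.62 to 3.36 CPM in Exo and 6.08 to 8.75 CPM in pLV-Exo-Wnt5a, with P2ry12 and Tmem119 at 0 counts in at least 1 library. In bulk RNA, fewer cells of a type and less RNA per cell cannot be told apart, and the part of these markers in the protocadherin differences was not tested.

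Among clustered protocadherins, most Pcdhb genes had a positive log2FC in each comparison with Con, as did most Pcdha genes, and the Pcdhg sums of the groups overlapped. Both comparisons used the same Con libraries. The difference between the arrays was not tested. In pLV-Exo-Wnt5a against Con, 9 of 21 tested Pcdhb genes were higher at an unadjusted p under 0.05 (42.9%, against 4.2% of all genes in this direction), 0 were lower, and the median log2FC was 0.46. In Exo against Con, 6 of 21 were higher (28.6%, against 8.92%), 0 were lower, and the median was 0.42. Between the exosome groups, 0 of 21 had an unadjusted p under 0.05 and the median was 0.09, with a sign that turned without Exo replicate 2 (-0.0045) or pLV-Exo-Wnt5a replicate 1 (-0.04). The neuron markers moved in the same comparisons with Con. In Exo 5 of 7 were higher (against 8.92% of all genes) and in pLV-Exo-Wnt5a 3 of 7 (42.9%, against 4.2%, median log2FC 0.25). Their part in the Pcdhb values was not tested.

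Summed over the array, Pcdhb was measured at 53.8, 66.8 and 69.2 CPM in Con, 89.3, 79 and 80.8 CPM in Exo, and 95.4, 85.4 and 78.5 CPM in pLV-Exo-Wnt5a. Every library of both exosome groups lay above every Con library, and the ratio of group means to Con was 1.31 in Exo and 1.37 in pLV-Exo-Wnt5a. The lowest Con value was that of replicate 1, which also held the lowest value of 16 of the 21 measured Pcdhb genes. Without this library, 2 of 21 Pcdhb genes were higher in Exo against Con (median 0.29). In that fit 12.1% of all genes had an unadjusted p under 0.05 in either direction. The count was 4 without Exo replicate 1 or 3 (8.68% and 12% of all genes) and 5 without Con replicate 2 (10.8%). It was 7 without Exo replicate 2 (8.64%), 9 without Con replicate 3 (23.4%) and 10 of 22 without the low-count filter (13.4%). In pLV-Exo-Wnt5a against Con, 5 were higher without Con replicate 1 (median 0.35, against 9.3% of all genes in either direction). In that second comparison the count was 3 without pLV-Exo-Wnt5a replicate 1 (against 4.07%), 3 without pLV-Exo-Wnt5a replicate 2 (against 5.87%) and 5 without Con replicate 2 (against 6.13%). These shares count both directions, unlike the 8.92% and 4.2% given for the fits with all libraries.

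**Figure D3:**
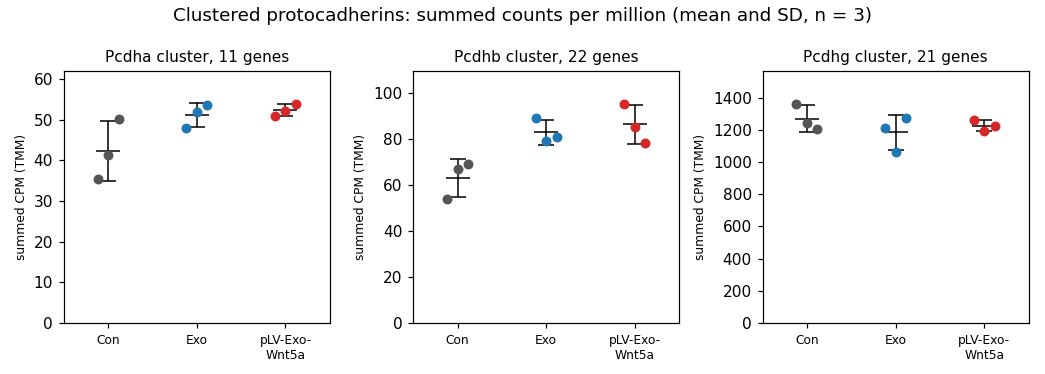
CPM (TMM) summed over the Pcdha, Pcdhb and Pcdhg arrays (vertical axes from 0) in each library of the 3 groups, with the mean and SD (n = 3). The 3 Con libraries of Pcdhb (53.8 to 69.2) lie below all 6 exosome libraries, whereas for Pcdhg the groups overlap.

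In pLV-Exo-Wnt5a against Con, Pcdhb22 had the smallest p of the array. It was measured at 3.89, 4.85 and 4.08 CPM in Con, 7.73, 6.46 and 5.3 CPM in Exo, and 7.24, 8.78 and 6.51 CPM in pLV-Exo-Wnt5a. All exosome libraries exceeded all Con libraries, with a log2FC of 0.81 ± 0.19 in pLV-Exo-Wnt5a (edgeR, unadjusted p = 0.00123, Q = 0.281) and 0.59 ± 0.19 in Exo (Q = 0.268). Pcdhb20 was measured at 3.27, 5.08 and 4.66 CPM in Con, 8.29, 6.78 and 6.11 CPM in Exo, and 7.8, 6.34 and 7.22 CPM in pLV-Exo-Wnt5a. Here too the exosome libraries did not overlap with Con, and the log2FC was 0.71 ± 0.20 in pLV-Exo-Wnt5a (edgeR Q = 0.422) and 0.70 ± 0.21 in Exo (Q = 0.265). Pcdhb3, with 1.19 to 1.86 CPM in Con, 2.25 to 2.69 CPM in Exo and 1.99 to 2.87 CPM in pLV-Exo-Wnt5a, showed the same separation (log2FC 0.74 ± 0.28 and 0.72 ± 0.26).

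Pcdhb2 was higher in Exo (1.58, 1.98 and 2.12 CPM) than in Con (0.778, 1.18 and 1.19 CPM), with a log2FC of 0.85 ± 0.30 (edgeR, unadjusted p = 0.0172, Q = 0.277), and pLV-Exo-Wnt5a, at 1.21, 1.59 and 1.74 CPM, overlapped with Exo. Pcdhb6 had 1 Exo library (1.34 CPM) among the Con values of 1.27 to 1.62 CPM, whereas its pLV-Exo-Wnt5a values of 3.71, 2.63 and 1.7 CPM lay above Con (log2FC 0.91 ± 0.32, and 0.59 without pLV-Exo-Wnt5a replicate 1). Pcdhb13 was at 0.908, 1.44 and 1.61 CPM in Con and at 2.17, 2.6 and 2.08 CPM in pLV-Exo-Wnt5a (log2FC 0.79 ± 0.29). Pcdhb16 rested on as few as 14 counts and had a log2FC of 0.96 ± 0.42 in pLV-Exo-Wnt5a. Pcdhb9, which had the most counts of the array, was at 6.77, 7.47 and 10.7 CPM in Con and at 13.5, 13 and 10.1 CPM in pLV-Exo-Wnt5a, so 1 library of each group overlapped. Its log2FC in Exo against Con was 0.42 ± 0.18, and 0.63 without Con replicate 3. In pLV-Exo-Wnt5a against Con, Pcdhb5 and Pcdhb7 had log2FCs of 0.45 ± 0.19 and 0.48 ± 0.22.

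The array was not uniform. Pcdhb4 (log2FC -0.10 ± 0.26), Pcdhb8 (-0.03 ± 0.23) and Pcdhb10 (-0.13 ± 0.27) were the 3 of 21 with a negative log2FC in Exo against Con, and Pcdhb19 stayed between 4.27 and 5.8 CPM over all 9 libraries. Pcdhb4, Pcdhb8, Pcdhb10 and Pcdhb19 carried the same promoter letters as the members shown above, and Pcdhb15, which lacked them in its window, had a log2FC of 0.80 ± 0.38 in Exo against Con. These are single genes, and a relation between the letters and the log2FCs was not tested. The genes of the array are similar to one another, and how reads that match more than 1 of them were assigned is not described, so the split among single Pcdhb genes is uncertain.

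**Figure D4:**
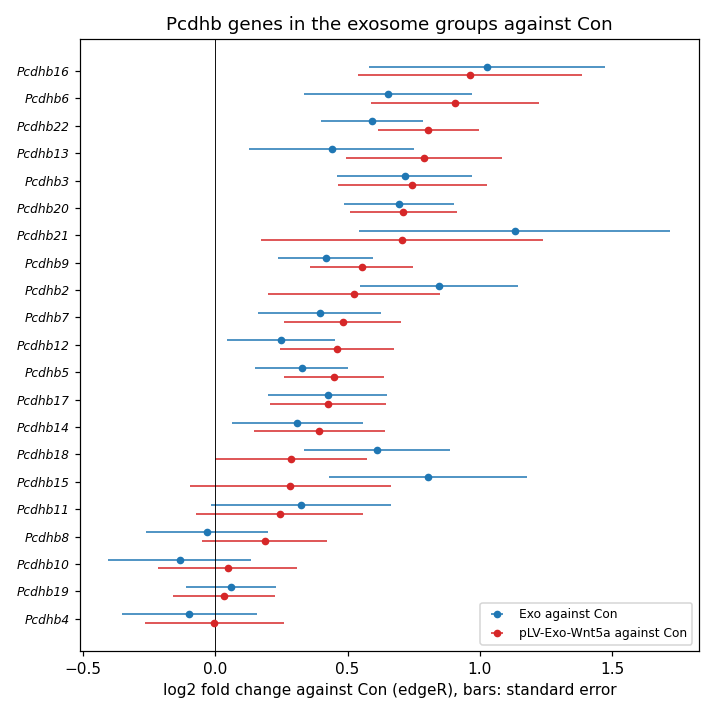
Log2FC against Con (edgeR, horizontal axis, bars are standard errors) of the 21 tested Pcdhb genes with Exo in blue and pLV-Exo-Wnt5a in red, ordered by the latter. 18 of 21 are positive in Exo and 20 of 21 in pLV-Exo-Wnt5a, both against the same Con libraries, and Pcdhb4 is below 0 in both.

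The Pcdha array summed to 35.4, 41.3 and 50.2 CPM in Con, 47.9, 51.8 and 53.7 CPM in Exo, and 50.9, 52.1 and 53.9 CPM in pLV-Exo-Wnt5a. The Exo libraries overlapped with Con replicate 3, while those of pLV-Exo-Wnt5a lay just above it. All 10 tested genes had a positive log2FC in Exo against Con (0.19 to 0.51), but 0 had an unadjusted p under 0.05. In pLV-Exo-Wnt5a against Con 2 of 10 did, and both were higher (20%, against 4.2% of all genes), a count that was 0 without Con replicate 1 or 2 or pLV-Exo-Wnt5a replicate 1 or 2, and 4 without Con replicate 3. Without Con replicate 3, 3 of 10 Pcdha genes were higher in Exo, in a fit in which 23.4% of all genes had such a p. Pcdhac2, a C-type isoform that held 43.0% of the array's CPM, was at 15.3, 17.9 and 22.1 CPM in Con and at 22.2, 23.8 and 22.8 CPM in pLV-Exo-Wnt5a (log2FC 0.31 ± 0.14, edgeR Q = 0.595, and 0.20 without Con replicate 1). Pcdha5 was at 2.46, 3.29 and 4.23 CPM in Con and at 5.12, 4.95 and 4.41 CPM in pLV-Exo-Wnt5a (log2FC 0.54 ± 0.23, edgeR Q = 0.585). Pcdhac1, the other C-type isoform of the array, stayed between 0.363 and 1.21 CPM.

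The Pcdhg array held most counts of the clustered protocadherins. Its sum was 1363, 1244 and 1204 CPM in Con, 1213, 1064 and 1274 CPM in Exo, and 1260, 1196 and 1224 CPM in pLV-Exo-Wnt5a. The groups overlapped, and Exo replicate 2 was the lowest. With all libraries, 0 of the 21 genes had an unadjusted p under 0.05 in any of the 3 comparisons. Without Exo replicate 3, 4 of the 21 were higher in pLV-Exo-Wnt5a than in Exo, against 13.4% of all genes in either direction, and all 21 log2FCs were positive (median 0.14). In that comparison 1 gene was higher without pLV-Exo-Wnt5a replicate 3, as was 1 in pLV-Exo-Wnt5a against Con without Con replicate 1 (12.2% and 9.3% of all genes in either direction). Their log2FCs ran from -0.19 to 0.03 in Exo against Con, from -0.12 to 0.11 in pLV-Exo-Wnt5a against Con, and from -0.01 to 0.20 between the exosome groups. Pcdhgc3, the C-type isoform known to be needed for dendrite arborization of cortical neurons, had 725, 645 and 624 CPM in Con, 644, 528 and 643 CPM in Exo, and 636, 573 and 638 CPM in pLV-Exo-Wnt5a. Its log2FC was -0.15 ± 0.10 in Exo against Con (edgeR Q = 0.472), and it held 51.2% of the array's CPM. Pcdhgc4, the isoform required for survival of many neurons, ranged from 57.1 to 68.9 CPM, and Pcdhgc5 from 9.16 to 12.3 CPM. Among the A-type isoforms, Pcdhga11 ranged from 64.1 to 75.6 CPM and Pcdhga3 from 45.0 to 56.5 CPM. Pcdhg transcripts, like those of Pcdha, share their 3′ constant exons, and how the counting assigned reads from those exons is not described. Whether this made single genes of an array resemble one another was not tested. The median coefficient of variation within groups was 7.78% for Pcdhg, 16.9% for Pcdhb and 18% for Pcdha, and the arrays also differed in counts per gene.

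With all libraries, classical cadherins had an unadjusted p under 0.05 about as often as all genes, or less. In Exo against Con it was 2 of 13 tested (15.4%, against 14.9% of all genes), both lower. Between the exosome groups it was 1 of 14 (7.14%, against 12%), and in pLV-Exo-Wnt5a against Con 0 of 13 (against 8.35%). Without Con replicate 3, 4 were higher and 1 lower of 15 in Exo against Con (23.4% of all genes in that fit, in either direction). Without the same library, 3 of 14 were higher in pLV-Exo-Wnt5a against Con (14.4%, again in either direction), so neither the count nor the direction was stable. Without the low-count filter, 2 were higher and 1 lower in Exo against Con. Cdh2 was measured at 107, 144 and 150 CPM in Con, 161, 160 and 153 CPM in Exo, and 154, 143 and 158 CPM in pLV-Exo-Wnt5a. The Exo libraries lay above Con, but its log2FC of 0.24 ± 0.11 did not pass the test (edgeR, unadjusted p = 0.0657, Q = 0.353) and was 0.10 without Con replicate 1. R-cadherin (Cdh4), which guides retinal and other axons, was at 137, 138 and 138 CPM in Con, 126, 118 and 126 CPM in Exo, and 130, 117 and 130 CPM in pLV-Exo-Wnt5a. Its Con libraries exceeded all others, with a log2FC of -0.17 ± 0.07 in Exo against Con (edgeR, unadjusted p = 0.0366, Q = 0.311).

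Cdh22, a type II cadherin of the brain, was lowest in the Exo group, where Pcdh19 and Pcdh17 were highest. It was measured at 33, 26.4 and 25.7 CPM in Con, 23.8, 19.3 and 24.2 CPM in Exo, and 29.6, 26.6 and 33.8 CPM in pLV-Exo-Wnt5a. The 3 Exo libraries were the lowest of the 9. The log2FC was 0.43 ± 0.12 for pLV-Exo-Wnt5a against Exo (edgeR, unadjusted p = 0.00353, Q = 0.157) and -0.35 ± 0.14 for Exo against Con (Q = 0.298), the latter being -0.23 without Con replicate 1. The other tested type II cadherins overlapped between groups, except that all pLV-Exo-Wnt5a libraries lay below Exo for Cdh8 and below Con for Cdh24. Cdh11, of mesenchyme and brain, ranged from 10.9 to 24.6 CPM, Cdh20 from 29.0 to 43.2 CPM, Cdh8 from 3.68 to 9.06 CPM and Cdh6 from 4.16 to 8.15 CPM, and none had an unadjusted p under 0.05 in any comparison. T-cadherin (Cdh13), which is anchored to the membrane by a lipid and lacks the cytoplasmic tail, ranged from 240 to 278 CPM, with log2FCs between -0.02 and 0.05.

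Partners of the members were read from lists of their known interactors. None of the partner genes reached Q under 0.05. Of the 8 tested catenins, which tie classical cadherins to actin, Arvcf had an unadjusted p under 0.05 in Exo against Con (log2FC -0.35) and between the exosome groups (0.23), and Pkp4 in pLV-Exo-Wnt5a against Con (0.30), so each comparison had 1 of 8 (12.5%), against 14.9%, 12% and 8.35% of all genes. The core members Ctnnb1 and Ctnna2 had log2FCs between -0.01 and 0.13. Of the 7 proteases that cleave cadherins, 1 was higher and 1 lower (Psenen, log2FC -0.23) at an unadjusted p under 0.05 in Exo against Con, 2 were lower between the exosome groups (Adam10 and Aph1b), and 0 had such a p in pLV-Exo-Wnt5a against Con, or 28.6%, 28.6% and 0% of the list against 14.9%, 12% and 8.35% of all genes. Adam10, the main sheddase of N-cadherin, had log2FCs of 0.50 in Exo against Con and -0.36 in pLV-Exo-Wnt5a against Exo, and its unadjusted p was 0.0353 and 0.0142.

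Of 12 regulators of clustered promoter choice, 1 was higher and 1 lower at an unadjusted p under 0.05 in Exo against Con, 1 was lower between the exosome groups, and 0 had such a p in pLV-Exo-Wnt5a against Con. The shares of 16.7%, 8.33% and 0% stood against 14.9%, 12% and 8.35% of all genes. The genes were Wapl, which releases cohesin from chromatin (log2FC 0.65 in Exo against Con and -0.70 in pLV-Exo-Wnt5a against Exo), and Dnmt3b, the DNA methyltransferase (-0.65 in Exo against Con). Ctcf, the factor that binds these promoters, had log2FCs between -0.01 and 0.11. Of 13 protocadherin effectors, 4 were higher in Exo against Con, 2 lower in pLV-Exo-Wnt5a against Exo and 2 higher in pLV-Exo-Wnt5a against Con, which were 30.8%, 15.4% and 15.4% of the list against 8.92%, 6.91% and 4.2% of all genes in these directions. The WAVE complex subunits Abi1 and Abi2 had log2FCs of 0.68 and 0.65 in Exo against Con and of 0.47 and 0.36 in pLV-Exo-Wnt5a against Con.

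In the wider superfamily, 5 of 15 tested genes had an unadjusted p under 0.05 in Exo against Con (2 higher, 3 lower), 4 of 15 between the exosome groups (3 higher, 1 lower) and 1 of 14 in pLV-Exo-Wnt5a against Con, which was lower. These were 33.3%, 26.7% and 7.14% of the list, against 14.9%, 12% and 8.35% of all genes. Celsr1, a planar polarity cadherin, had the smallest p of these, with log2FCs of -0.55 in Exo (edgeR Q = 0.17) and -0.46 in pLV-Exo-Wnt5a (Q = 0.152) against Con. Fat4 and Dchs1, which bind each other between cells, had log2FCs of 0.19 and 0.17 between the exosome groups, and Fat3 one of -0.44.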

How the data were processed

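The authors deposited whole-number read counts per gene, not normalized, for 9 RNA-seq libraries of rat NSCs (3 per group). The paper names HISAT2 and DESeq2, and the submitters' processing notes name Bowtie2, RSEM 1.3.1 and DESeq2 1.4.5. The genome build, annotation and assignment of multiply matching reads are not given in the sources used here, and the genes carry mouse symbols and mouse NCBI numbers. No count column was left without a sample.

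From these counts, each pair of groups (6 libraries) was filtered with filterByExpr and scaled by TMM in edgeR 4.0.16 (R 4.3.3), whose quasi-likelihood F-test gave p-values, adjusted over all genes tested by Benjamini-Hochberg (Q). SE values come from the test statistic. Total counts of 32765138 to 40427647 set the 3-count limit at 0.0742 to 0.0916 CPM before the TMM correction. Alternatives were RLE normalization, no filter or at least 10 counts per library, DESeq2 1.42.0, all 9 libraries in 1 fit, the replicate number as a block, added fold limits, and leaving out each library. The members, gene lists and tests were chosen with earlier results of these data known. Genes were named if Q was under 0.05, if among the 8 smallest p per comparison or the 4 highest CPM per family, if on a fixed list of known members, or, for partners, if among the 2 smallest p per list and comparison, and others are named to complete a family.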

Additional observations from a re-analysis of the deposited data

How the results depend on the processing

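Counts of members with Q under 0.05 became 1 in Exo against Con (Pcdh20) and 4 in pLV-Exo-Wnt5a against Exo (Pcdh19, Pcdh17, Pcdh11x and Cdh22) without the low-count filter (1.93% and 1.71% of all genes), and 4 in pLV-Exo-Wnt5a against Exo and 1 in pLV-Exo-Wnt5a against Con (Pcdhb22) with DESeq2. The cause was not tested. With an absolute log2FC above 0.58 also required, the counts at an unadjusted p under 0.05 were 7, 2 and 6 in the 3 comparisons, in place of 12, 7 and 11, against 4.47%, 3.49% and 2.16% of all genes. Leaving out 1 library moved these counts from 7 (without Con replicate 1, 12.1% of all genes) to 22 (without Con replicate 3, 23.4%) in Exo against Con, from 6 to 12 (without Exo replicate 3, 13.4%) in pLV-Exo-Wnt5a against Exo, and from 3 (without pLV-Exo-Wnt5a replicate 1, 4.07%) to 17 (without Con replicate 3, 14.4%) in pLV-Exo-Wnt5a against Con. No leave-one-out fit gave a member Q under 0.05. Median log2FCs in Exo against Con then ran from 0.07 to 0.24 for classical cadherins, 0.049 to 0.16 for clustered and 0.15 to 0.38 for non-clustered protocadherins. In pLV-Exo-Wnt5a against Exo they ran from -0.07 to -0.01, 0.01 to 0.12 and -0.46 to -0.24, and in pLV-Exo-Wnt5a against Con from -0.11 to 0.15, 0.09 to 0.16 and -0.12 to 0.06. Deviations from the group means were little correlated between libraries of the same number (r from -0.201 to 0.0634). This gave no sign that the numbers pair the libraries. It cannot exclude a pairing, as one that touched few genes would leave r small. With the replicate number as a block, 9, 8 and 10 members had an unadjusted p under 0.05 (9.4%, 12.4% and 9.23% of all genes) and 0 had Q under 0.05. Depth limited members near 3 counts.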
